A study of Mus musculus with 7 samples.

Results

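Lyz1, Lyz2, Ms4a7 and Ccr2 are 4 of the 12393 genes with a probe set of their own on the arrays, and all 8 probe sets with these symbols, of 22626, are described here. The members were chosen by their measured signals: the arrays of mice given antibody against ICOSL from day 0 lay apart from those of mice given it from day 3 for Lyz1, Lyz2 and Ms4a7, and Ccr2, a receptor of monocytes, was added to set against them. Every value that contrasts these schedules, or either of them with isotype, is therefore a description, and tests are given only for the contrast of isotype with syngeneic arrays.

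The study asked what the costimulatory receptor ICOS and its ligand ICOSL do in acute graft-versus-host disease, in which grafted T cells attack the host. Recipients were female C57BL/6 (B6) mice aged 9 to 12 weeks, and all were irradiated with 10.0 Gy and given splenocytes 4 to 6 h afterwards. The syngeneic group (1 array) received B6 splenocytes and no antibody is recorded for it. The other 3 groups (2 arrays each) received splenocytes of C3H/HeN mice: the isotype group a control antibody, the day 0 and day 3 groups an anti-ICOSL antibody from that day after the graft, each with 500 µg at first and 200 µg every other day after that. The labels do not say on which day the isotype antibody was started. Spleen cells were taken on day 4. By this schedule the day 3 group had received only its first dose by then, and the day 0 group later doses as well. Start day, total dose and time under antibody therefore cannot be told apart between these groups. RNA of the allogeneic mice, 4 per group and experiment, was combined before it was put on arrays. The labels do not say whether both arrays of a group hold the same combined RNA, so an error or p-value here covers only the spread between arrays, which may be technical. Only the syngeneic mice lacked a C3H graft, so in the contrast with them the strain of the graft and the response to it cannot be told apart. What remained of host spleen cells in each group was not recorded.

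Lysozyme cuts the peptidoglycan of bacterial walls. Mice carry a duplicated pair of lysozyme genes: Lyz2 (lysozyme M) is made by monocytes, macrophages and neutrophils, and Lyz1 (lysozyme P) is best known from the Paneth cells of the gut. Ms4a7 encodes a membrane protein with 4 passes of the MS4A family, found mainly on macrophages. Ccr2 encodes the receptor for the chemokine Ccl2 and its relatives, which draws classical monocytes out of the bone marrow, and activated T cells carry it too.

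The lysozyme promoters are shown because Lyz2 and the brighter Lyz1 probe sets had the same order of groups. That of Ms4a7 is shown because it was picked with them. Each is the stretch of 250 bases before an annotated start, taken from RefSeq (GRCm38.p6) and written 5′ to 3′ on the gene's own strand. Capitals mark the letters AGGAAG, or CTTCCT on the other strand, a core that PU.1 and other ETS factors bind.
Lyz2, chr10:117282273-117282522, minus strand: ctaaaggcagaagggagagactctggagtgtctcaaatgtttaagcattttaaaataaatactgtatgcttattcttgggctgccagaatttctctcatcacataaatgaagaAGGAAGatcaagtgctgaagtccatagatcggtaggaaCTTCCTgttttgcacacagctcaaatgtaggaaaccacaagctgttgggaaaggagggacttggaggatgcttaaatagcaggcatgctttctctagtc
Lyz1, chr10:117292869-117293118, minus strand: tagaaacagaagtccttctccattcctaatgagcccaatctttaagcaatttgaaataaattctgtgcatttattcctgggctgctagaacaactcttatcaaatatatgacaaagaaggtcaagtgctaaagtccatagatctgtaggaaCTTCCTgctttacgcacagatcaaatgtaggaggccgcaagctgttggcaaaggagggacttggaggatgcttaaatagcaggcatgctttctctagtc
Ms4a7, chr19:11336147-11336396, minus strand: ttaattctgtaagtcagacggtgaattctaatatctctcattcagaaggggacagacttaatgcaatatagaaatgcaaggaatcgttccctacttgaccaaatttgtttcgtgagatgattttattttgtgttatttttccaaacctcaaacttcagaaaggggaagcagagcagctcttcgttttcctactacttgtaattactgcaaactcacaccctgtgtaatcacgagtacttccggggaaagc

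Lyz1 and Lyz2 are next to each other on chromosome 10, with no other protein-coding gene between them in the RefSeq table. Their promoter stretches matched at 200 of 252 aligned columns, or 79.4%, with 4 columns of gaps, and the last 50 bases before the start were the same in both. Either of them matched that of Ms4a7 at 45.8% (Lyz2) and 46.0% (Lyz1) of aligned columns. The 6 letters AGGAAG stood at 2 places in the Lyz2 stretch, 137 and 99 bases before the start, and at 1 in that of Lyz1, at 99 bases, the place where the 2 stretches share it. On either strand they occurred in 9686 of 32851 mouse promoter stretches of the same length (29.5%). They did not occur in the Ms4a7 stretch shown, nor in that before the other of its 2 annotated starts. Only these exact letters were searched, so other forms of an ETS site would be missed. TTNNGNAA, the spaced core of C/EBP factors, occurred once or more in all 3 stretches shown and in 36.9% of mouse promoters. TATAAA occurred in none of these 3 and in 12.4% of promoters. Ms4a7 lies in the Ms4a cluster on chromosome 19, between Ms4a14 and Ms4a4a, and Ccr2 lies next to Ccr3 on chromosome 9.

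Lyz2 was read by 1 probe set (1423547_at), Lyz1 by a bright (1436996_x_at), a middle (1439426_x_at) and a dim one (1450822_at), Ms4a7 by 1 (1424754_at), and Ccr2 by a bright (1421187_at), a middle (1421186_at) and a dim one (1421188_at), named here by their mean signal. All 8 passed the filter on low signals.

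The 7 arrays had been scaled to a common trimmed mean of 500.18 to 500.19 units, and their medians ran from 145.3 to 174.3. Gapdh control signal near the 3′ end over that near the 5′ end, a ratio that climbs in degraded RNA, was 0.957 for the syngeneic array. It was 0.784 and 0.767 with isotype antibody, 0.794 and 0.821 with day 0 antibody and 0.838 and 0.865 with day 3 antibody. The ratio thus differed between the schedules too, without overlap, and its part in any of the contrasts was not tested. Splenocyte markers were present throughout: Thy1 of T cells ranged from 5088 to 11356 units and Ms4a1 (CD20) of B cells from 3142 to 9184 units. A fall in signal in these mixed cells can come from fewer cells of a type or from less RNA in each cell, and the arrays cannot tell these apart.

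Lysozyme transcripts were lower in spleens of isotype-treated allogeneic mice than in the syngeneic spleen. Lyz2 read 3825 units on the syngeneic array and 1259 and 1588 with isotype antibody (mean 1424 ± 233, SD, n = 2). Its log2 difference, isotype minus syngeneic, was −1.40 ± 0.22 (SE), a 2.65-fold fall on the log2(signal + 50) scale, with an adjusted p of 0.0184 by limma. The bright Lyz1 probe set read 6207 units on the syngeneic array and 1631 and 1438 with isotype antibody (1535 ± 136), and fell by 1.98 ± 0.24 on the log2 scale (adjusted p = 0.00891 by limma). Lyz2 and the bright Lyz1 probe set thus lay far below the syngeneic level on each isotype array. The dim Lyz1 probe set, at 43.0 units against 42.9 and 16.8, did not pass the test (adjusted p = 0.720 by limma). The middle Lyz1 probe set read 1123 units against 400 and 390 (395 ± 7.24), and fell by 1.40 ± 0.27 (adjusted p = 0.0342 by limma).

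Ms4a7 was also lower with isotype antibody. It read 478 units on the syngeneic array and 26.0 and 17.9 with isotype antibody (21.9 ± 5.74), which is 4.58% of the syngeneic level. Its log2 difference was −2.88 ± 0.29, a 7.36-fold fall on the log2(signal + 50) scale (adjusted p = 0.00462 by limma). Probe sets were tested where the mean of at least 1 group reached 99.7 units, and Ms4a7 reached it only in the syngeneic and day 0 groups, so its isotype signal lies below the level set for testing and it could enter the test only through groups where it is high. The size of its fall depends on such low values: over the alternative settings the log2 difference ran from −3.71 to −2.25.

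No Ccr2 probe set passed the test in this contrast. Its bright probe set read 376 units on the syngeneic array and 521 and 509 with isotype antibody (515 ± 7.88), with a log2 difference of 0.41 ± 0.19 (adjusted p = 0.259 by limma). The middle probe set read 334 units against 346 and 447, a difference of 0.21 ± 0.24 (adjusted p = 0.654), and the dim one read 122 units against 95.4 and 125, a difference of −0.11 ± 0.40 (adjusted p = 0.904). The standard errors of the middle and dim Ccr2 probe sets leave room for shifts of either sign. Over all 15372 probe sets tested, 4.12% fell and 2.49% rose in this contrast.

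The lysozyme calls were not equally firm. The fall of the bright Lyz1 probe set passed under all 15 alternative settings, with adjusted p-values up to 0.0451. That of Lyz2 passed under 13 of 15: without isotype array 1 its difference was −1.24 (adjusted p = 0.0587), and with the compared groups alone the adjusted p was 0.0863. That of the middle Lyz1 probe set passed under 5 of 15 (adjusted p from 0.00551 to 0.105), and leaving out either isotype array or either day 0 array ended it, with adjusted p-values of 0.0941, 0.105, 0.0789 and 0.0776 in that order.

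**Figure D1:**
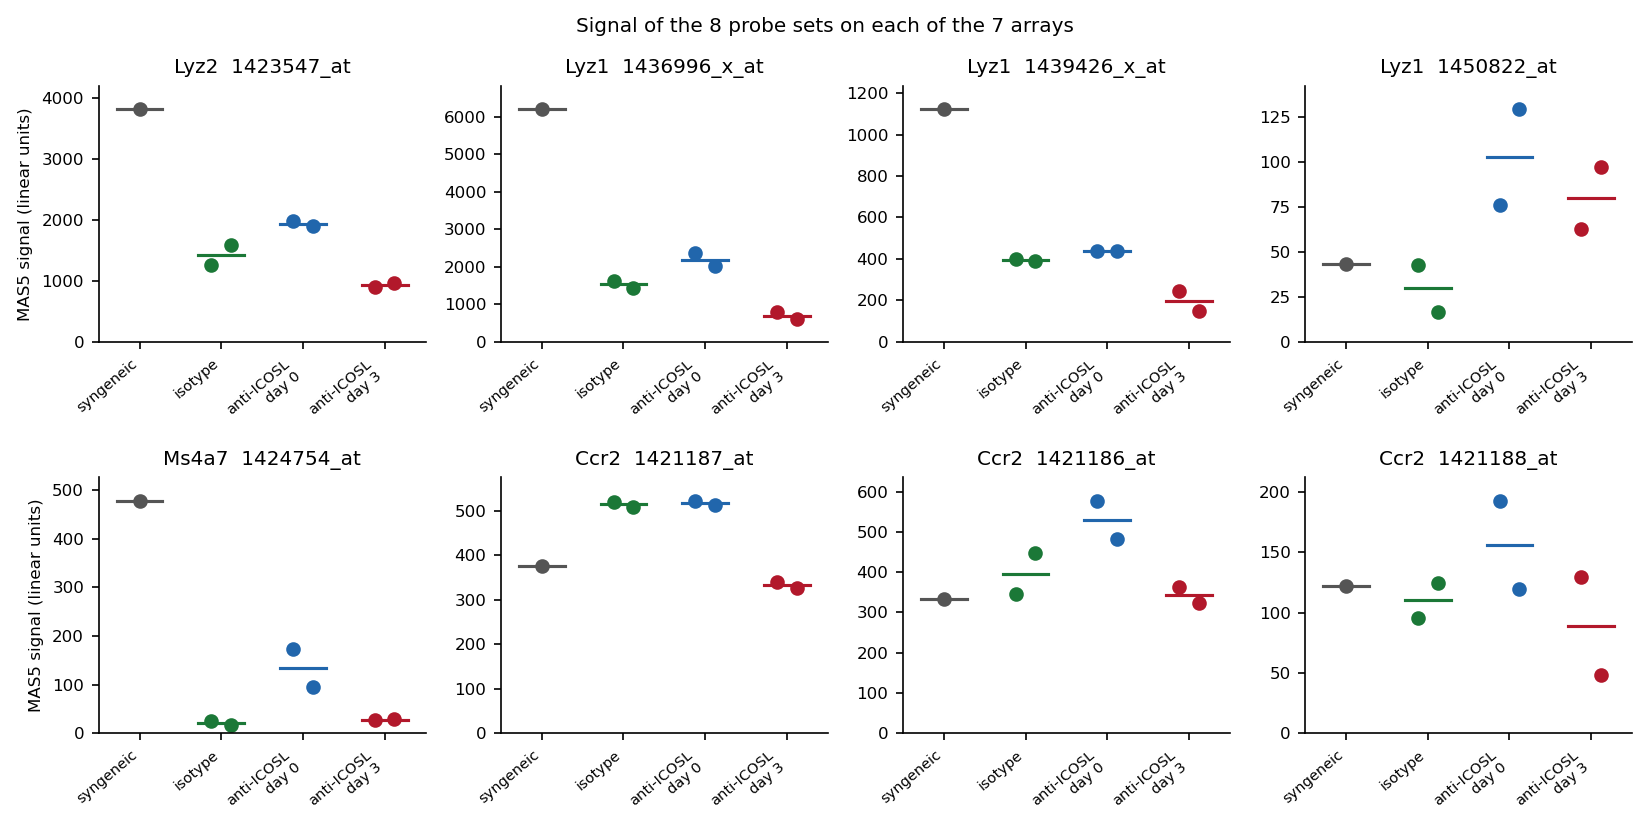
Signal of each of the 8 probe sets in linear MAS5 units (vertical axes, each starting at 0) on the 7 arrays by group, with 1 dot per array and a bar at the group mean. Lyz2 and the 2 brighter Lyz1 probe sets step down from syngeneic over day 0 and isotype to day 3, Ms4a7 is near the bottom in the isotype and day 3 groups, and the bright Ccr2 probe set is lowest with day 3 antibody.

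The order of the groups was the same for Lyz2 and the brighter Lyz1 probe sets: syngeneic highest, then day 0, isotype and day 3, with no overlap between arrays of neighbouring groups. Of all tested probe sets 56, or 0.364%, had this order without overlap, and these 3 are among them. Since the members were picked for a part of this order, the count says nothing further about them.

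Lyz2 read 1987 and 1904 units with day 0 antibody (1945 ± 58.5) and 905 and 964 with day 3 antibody (935 ± 41.9). The isotype arrays, at 1259 and 1588 units, lay between. The ratio of mean signals, day 0 over day 3, was 2.08. Against isotype, the log2 difference was 0.45 ± 0.18 for day 0 and −0.57 ± 0.18 for day 3.

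The bright Lyz1 probe set read 2362 and 2011 units with day 0 antibody (2186 ± 248) and 789 and 602 with day 3 antibody (696 ± 133). The day 0 arrays lay above the isotype arrays and the day 3 arrays below them, and the ratio of mean signals, day 0 over day 3, was 3.14. Against isotype, the log2 difference was 0.50 ± 0.20 for day 0 and −1.10 ± 0.20 for day 3.

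The middle Lyz1 probe set read 436 and 439 units with day 0 antibody (438 ± 1.73) and 247 and 150 with day 3 antibody (198 ± 68.8). Its day 0 arrays lay only just above the isotype arrays, with a log2 difference of 0.13 ± 0.22, and its day 3 arrays lay 0.87 ± 0.22 below them. For this probe set the distance between the schedules was therefore mostly a low day 3 signal, whereas Lyz2 stood nearly as far from isotype on the day 0 side as on the day 3 side.

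Ms4a7 stood out by its day 0 arrays. Its signal was 173 and 95.9 units with day 0 antibody (134 ± 54.4) and 27.5 and 28.9 with day 3 antibody (28.2 ± 1.01), and the day 3 and isotype arrays were all below 30 units, where their order cannot be read. The log2 difference from isotype was 1.33 ± 0.23 for day 0 and 0.12 ± 0.23 for day 3. The day 0 arrays differed widely from each other, and both stayed far below the syngeneic array.

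Ccr2 also lay apart between the schedules in 2 of its 3 probe sets, so it is no fixed reference for the other members. The bright probe set read 523 and 514 units with day 0 antibody (519 ± 6.39), which overlapped isotype, and 341 and 326 with day 3 antibody (334 ± 10.9). Its log2 difference from isotype was 0.0090 ± 0.15 for day 0 and −0.56 ± 0.15 for day 3. The middle probe set read 578 and 482 units with day 0 antibody (530 ± 67.6) and 362 and 325 with day 3 antibody (343 ± 26.6). The dim one overlapped, with 193 and 120 units against 129 and 48.1.

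Day 0 arrays lay above both day 3 arrays for 6 of the 8 probe sets, the exceptions being the dim Lyz1 probe set and the dim Ccr2 probe set. That holds for 18.6% of all tested probe sets, and 20.4% lay the opposite way. With a difference of at least 2-fold on the log2(signal + 50) scale as well, it holds for 4 of the 8, namely Lyz2, the bright Lyz1 probe set, the middle Lyz1 probe set and Ms4a7, and for 0.442% of all tested probe sets. Their log2 differences, day 0 minus day 3, were 1.02, 1.59, 1.00 and 1.21, beside 0.57, 0.56 and 0.61 for the bright, middle and dim Ccr2 probe sets. Over the alternative settings the lowest difference was 0.98 for Lyz2, 0.72 for the middle Lyz1 probe set and 0.85 for Ms4a7, each below 2-fold. For the bright Lyz1 probe set it was 1.41. The members were picked on this contrast, so nothing is read from these shares.

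The gap between the lowest day 0 array and the highest day 3 array shows how close the groups came. On the log2 scale it was 1.30 for the bright Lyz1 probe set, 0.95 for Lyz2, 0.89 for Ms4a7 and 0.71 for the middle Lyz1 probe set. It was 0.53 and 0.37 for the bright and middle Ccr2 probe sets. It was below 0, an overlap, for the dim Lyz1 probe set (−0.22) and the dim Ccr2 probe set (−0.079).

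Against isotype, both day 0 arrays were higher for 6 of the 8 probe sets, where 19.4% of all tested probe sets had both higher. Both day 3 arrays were lower for 4 of the 8 (Lyz2, the brighter Lyz1 pair and the bright Ccr2 probe set), where 18.8% of all tested probe sets had both lower. These contrasts use the same isotype arrays and are not independent of each other. In the fit across all probe sets limma called 0% in day 0 minus isotype, 0% in day 3 minus isotype and 0% in day 0 minus day 3. At an unadjusted p under 0.05 it had 1103, 1573 and 1043 probe sets, and the smallest adjusted p-values were 0.0853, 0.0971 and 0.0914.

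**Figure D2:**
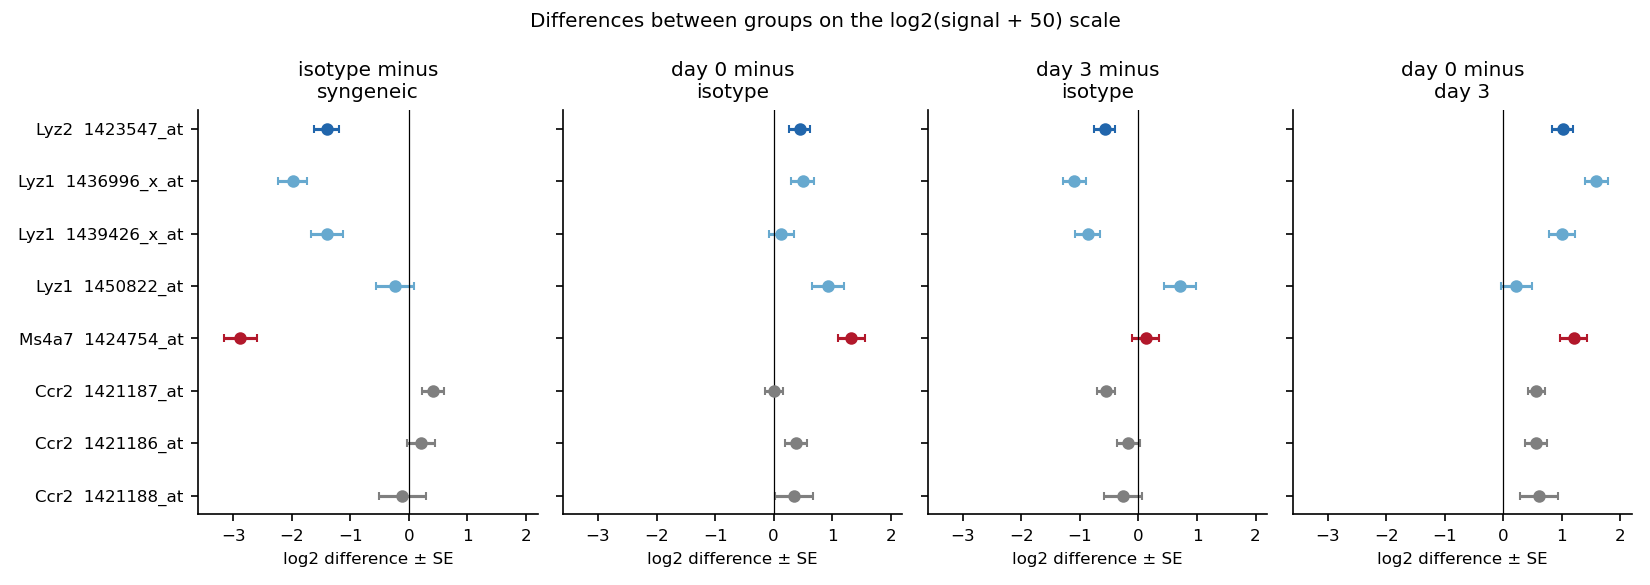
Differences between groups on the log2(signal + 50) scale for the 8 probe sets, with dots at the fitted difference and bars of 1 standard error, in 1 panel per contrast. Isotype minus syngeneic lies below 0 for Lyz2, Ms4a7 and the brighter Lyz1 probe sets and between −0.11 and 0.41 for Ccr2, while day 0 minus day 3 lies above 0 for all members, furthest for the bright Lyz1 probe set at 1.59.

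The 3 Lyz1 probe sets did not agree. On the 6 allogeneic arrays the log2 signals of the bright and middle ones correlated at r = 0.96, as a description over arrays of which those of a group may hold the same RNA. The dim one correlated with the bright one at r = −0.032. It read 43.0 units on the syngeneic array, 42.9 and 16.8 with isotype antibody, 76.1 and 129 with day 0 antibody and 62.7 and 97.1 with day 3 antibody. It entered the test only through the day 0 group (103 ± 37.6) and its isotype minus syngeneic difference was −0.24 ± 0.33 (adjusted p = 0.720 by limma). In Affymetrix names the ending _x_at marks a probe set some of whose probes can also bind other transcripts. Both brighter Lyz1 probe sets carry it and the dim one does not, and how much Lyz2 transcript they bind was not tested.

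Lyz2 and the bright Lyz1 probe set correlated at r = 0.92 over the 6 allogeneic arrays, but the distance between them varied from array to array. The log2 signal of Lyz2 minus that of the bright Lyz1 probe set was −0.69 on the syngeneic array, −0.36 and 0.14 with isotype antibody, −0.24 and −0.077 with day 0 antibody and 0.19 and 0.64 with day 3 antibody. Only the change of this difference between arrays can be read, since probe sets differ in how brightly they report. It was highest with day 3 antibody, but the lower day 3 array (0.19) lay close to the higher isotype array (0.14). The arrays within each of these groups differed by more than that, so the step between the groups is not firm. Ms4a7 correlated with Lyz2 at r = 0.72 and with the bright Ccr2 probe set at r = 0.43, and the bright Ccr2 probe set with the bright Lyz1 probe set at r = 0.95.

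As a share of the syngeneic array, Lyz2, the bright Lyz1 probe set and Ms4a7 had overlapping ranges below that of the bright Ccr2 probe set. Mean Lyz2 signal was 37.2% in isotype, 50.9% in day 0 and 24.4% in day 3. The bright Lyz1 probe set was at 24.7%, 35.2% and 11.2%. Ms4a7 was at 4.58%, 28.1% and 5.90%, and the bright Ccr2 probe set at 137%, 138% and 88.8%. No anti-ICOSL array reached the syngeneic level of Lyz2, Ms4a7 or of the bright or middle Lyz1 probe set.

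**Figure D3:**
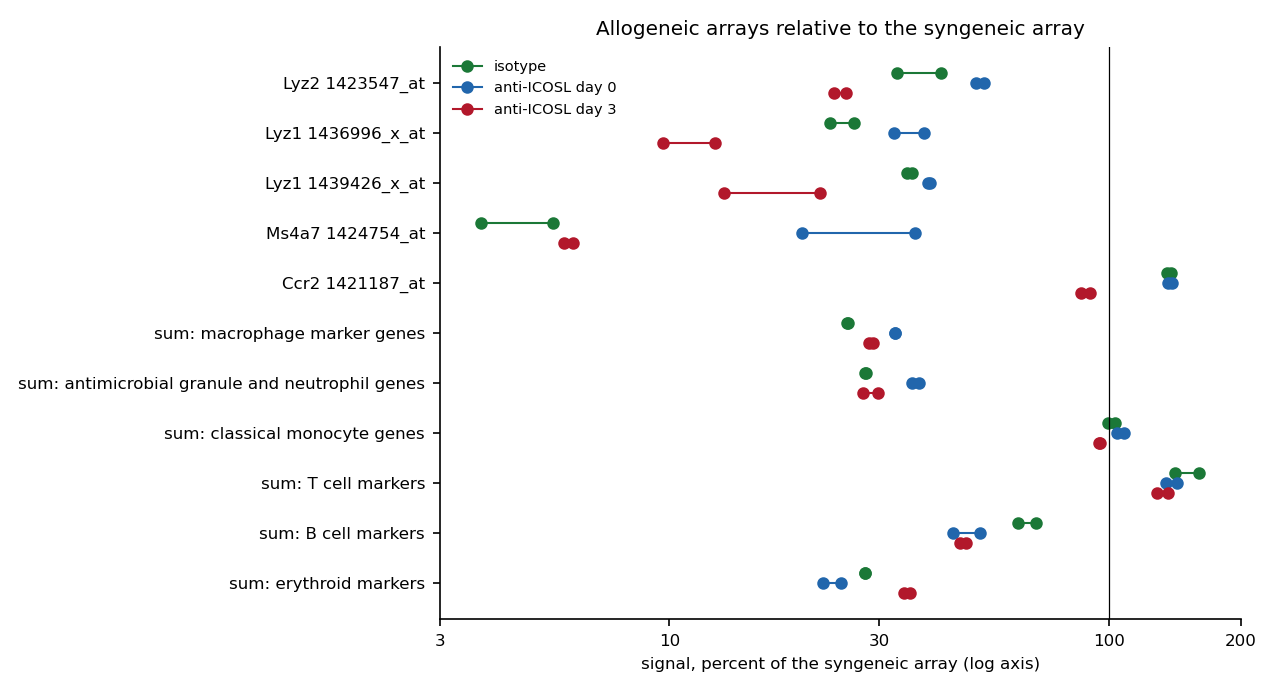
Signal on each allogeneic array as a percentage of the syngeneic array (log axis), for 5 member probe sets and for summed signals of marker lists, with 1 dot per array and lines that join the 2 arrays of a group. The lysozymes and Ms4a7 lie well below 100%, as do macrophage, neutrophil and erythroid genes and, less far, B cell genes. Ccr2 lies around 100%, and the lysozymes have day 0 above and day 3 below isotype.

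Lists of genes of the same families and cell types were set beside the members, with 1 probe set per gene and the median of all 8947 tested genes (−0.0094 for isotype minus syngeneic) as background. Counts of list genes that fell or rose by limma stand beside 4.12% and 2.49% of all 15372 tested probe sets in this contrast. Among macrophage marker genes, 23 of 27 tested fell and 1 rose, with a median of −2.23. Apoe, a lipid carrier, fell by 3.91 ± 0.31 on the log2 scale. Slc40a1, which exports iron from macrophages that recycle red cells, fell by 3.65 ± 0.20, and Vcam1, an adhesion molecule of splenic macrophages, fell by 3.52 ± 0.20. Hmox1, which breaks down haem, fell by 3.40 ± 0.24. The member that rose was Lgals3, a galectin that activated T cells also make, at 2.22 ± 0.20. The adjusted p-values of these 5 lay between 0.00135 and 0.00328 by limma. The summed macrophage signal was at 25.4% and 25.6% of syngeneic with isotype antibody, 32.6% on both day 0 arrays, and 28.4% and 29.1% with day 3 antibody.

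The macrophage genes followed the lysozymes from syngeneic to isotype but not from isotype to day 3. Of the 27, 26 were higher in day 0 than in isotype (median 0.45), 22 of them without overlap, beside 53.0% and 19.4% of all tested genes. In day 3 against isotype 22 were higher (median 0.29), 17 of them without overlap, beside 56.0% and 25.7% of all tested genes. Lyz2 and the brighter Lyz1 probe sets were lower there. The part of macrophage numbers in the member values was not tested. Vcam1 read 759 and 673 units with isotype antibody, 1422 and 1504 with day 0 antibody and 1108 and 1184 with day 3 antibody. Csf1r, the receptor that macrophages need to survive, read 1951 and 2022, then 2726 and 2704, then 2834 and 2481, against 10891 on the syngeneic array. Csf1r fell by 2.43 ± 0.20 from syngeneic to isotype (adjusted p = 0.00272 by limma), and Csf1, the factor it binds, rose by 1.32 ± 0.21 (adjusted p = 0.0184 by limma). The call of Csf1 was lost without isotype array 1 (adjusted p = 0.0654) or 2 (0.0546).

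Of the 18 tested myeloid lineage regulators and growth factor receptors, 2 fell and 1 rose, with a median of −0.38. Csf2ra, a chain of the receptor for GM-CSF, fell by 1.85 ± 0.26 (adjusted p = 0.0133 by limma), and without isotype array 1 or 2 the adjusted p was 0.0579 or 0.0519. It had the lysozyme order: 141 and 160 units with isotype antibody, 256 and 250 with day 0 antibody, and 81.7 and 139 with day 3 antibody. Spi1, which encodes PU.1, had a log2 difference of −0.91 ± 0.26 (adjusted p = 0.106), and Irf8, a regulator of monocyte and dendritic cell development, 0.25 ± 0.20 (adjusted p = 0.523).

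Classical monocyte genes were divided from syngeneic to isotype: 5 of 15 tested fell and 1 rose, with a median of −0.92. Chil3, a chitinase-like secreted protein, fell by 3.52 ± 0.33, Mgst1, a glutathione transferase, fell by 2.89 ± 0.31, and Cd14, the co-receptor for endotoxin, fell by 2.56 ± 0.25. S100a4, a calcium-binding protein that activated lymphocytes also make, rose by 2.68 ± 0.22. The adjusted p-values of these 4 lay between 0.00289 and 0.00563 by limma. Between the schedules, 13 of the 15 were higher in day 0 than in day 3, 10 of them without overlap, with a median of 0.39. Of all tested genes 46.6% were higher and 17.8% were higher without overlap, with a median of −0.021. Ccr2 is 1 of these 15. Chil3 read 172 and 155 units with day 0 antibody and 65.0 and 147 with day 3 antibody, a split far narrower in units than its fall from 1931 on the syngeneic array.

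Nonclassical monocyte genes showed no common direction: 1 of 13 rose and 1 fell from syngeneic to isotype, with a median of −0.053. Spn (CD43) rose by 1.13 ± 0.20 (adjusted p = 0.0261 by limma), a call that 9 of 15 alternatives lost, with an adjusted p of 0.0530 to 0.0807 when any 1 allogeneic array was left out. Pglyrp1, which binds peptidoglycan, fell by 1.87 ± 0.24 (adjusted p = 0.0106 by limma). Between the schedules 6 were higher in day 0 and 7 in day 3, beside 46.6% of all tested genes higher in day 0.

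Antimicrobial granule and neutrophil genes fell with the lysozymes: 9 of 15 tested fell and 0 rose by limma, with a median of −1.66. Camp, the cathelicidin peptide, fell by 2.51 ± 0.23 and Lcn2, which binds bacterial siderophores, fell by 2.23 ± 0.28. The chains of calprotectin changed too: S100a9 fell by 2.18 ± 0.20 and S100a8 fell by 1.67 ± 0.20. Ltf, the iron binder lactoferrin, fell by 1.99 ± 0.27, and the adjusted p-values of these 5 lay between 0.00353 and 0.0119 by limma. Between the schedules, 8 of the 15 were higher and 1 lower in day 0 than in day 3 without overlap (median 0.27), beside 17.8% and 21.0% of all tested genes. Against isotype the day 3 arrays went both ways, with 4 genes higher and 4 lower without overlap (median −0.044), beside 25.7% and 18.4% of all tested genes. Lcn2, S100a9 and Ngp, a neutrophil granule protein, had the full lysozyme order, while Ltf, Mpo, Elane and S100a8 were higher in day 3 than in isotype. Lcn2 read 3009 units on the syngeneic array, 1024 and 723 with day 0 antibody, 546 and 660 with isotype antibody and 456 and 371 with day 3 antibody. S100a9 read 9572 units, then 2638 and 2524, then 2153 and 1990, then 1857 and 1620. The day 3 arrays of S100a8, at 3596 and 3700 units, lay above its isotype arrays at 3068 and 2977. Neutrophils make Lyz2 too, and the part of this list in the lysozyme values was not tested.

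**Figure D4:**
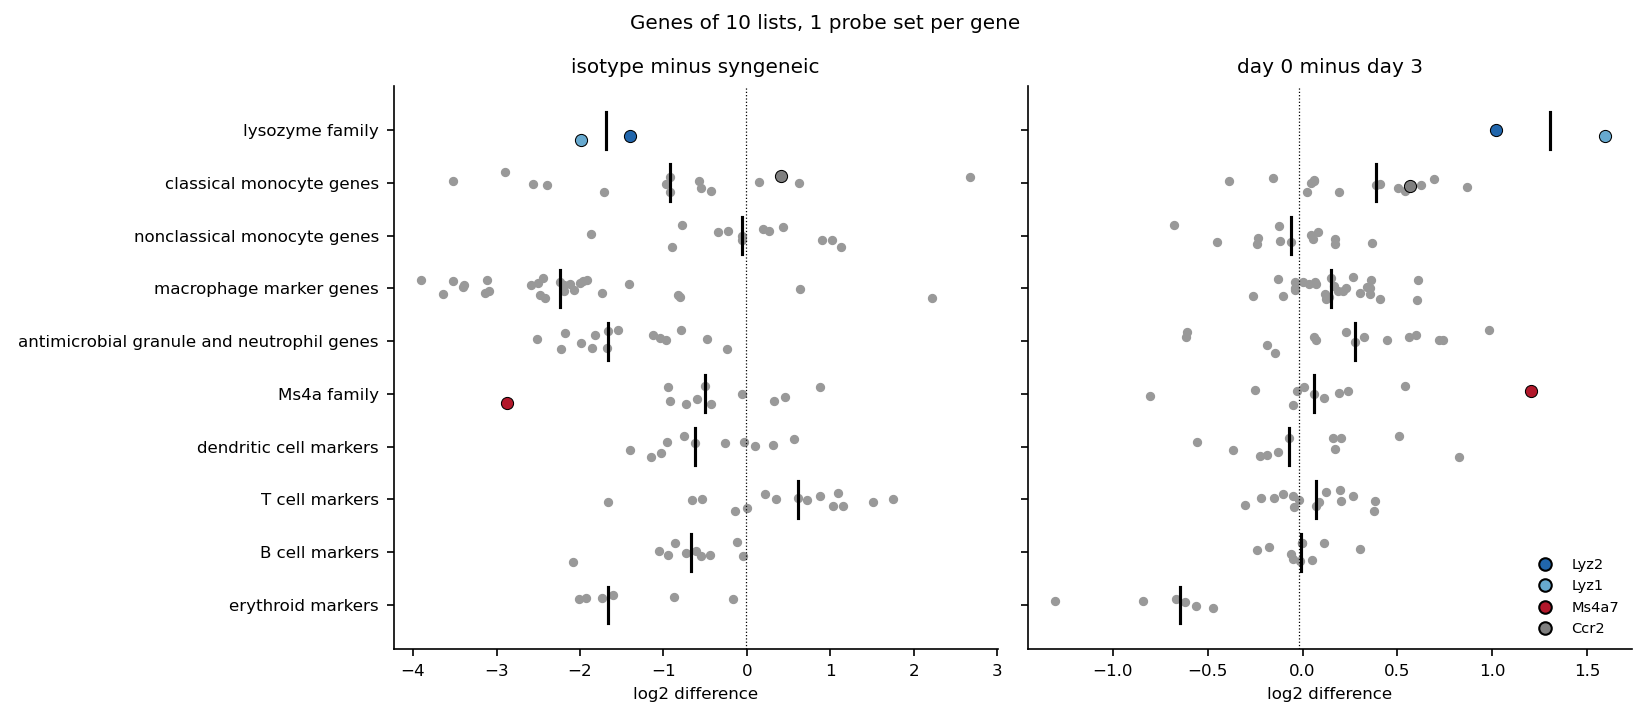
Log2 differences of single genes (dots) and the list median (bars) for 10 lists, isotype minus syngeneic on the left and day 0 minus day 3 on the right, with the dotted line at the median of all tested genes. The lysozymes and Ms4a7 lie to the far right in the contrast of the schedules, at 1.59, 1.02 and 1.21, Ccr2 lies inside its list at 0.57, and all 6 erythroid genes lie below 0.

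Of the lysozyme family, Lyz1 and Lyz2 were the only ones of 5 genes with a probe set that passed the filter on low signals: Lyzl1, Lyzl4 and Lalba did not reach it in any group. Among 11 tested genes of the Ms4a family, Ms4a7 fell and 0 rose by limma, with a median of −0.50. Of its relatives near it on chromosome 19, Ms4a1, Ms4a4c and Ms4a4b were tested and did not pass. Ms4a1, the B cell marker, read 9184 units on the syngeneic array and 5090 and 4454 with isotype antibody (−0.94 ± 0.28, adjusted p = 0.110 by limma). Ms4a4c read 2289 against 1767 and 1602 (−0.43 ± 0.21, adjusted p = 0.292), and Ms4a4b, which T cells make, 6310 against 7629 and 9950 (0.46 ± 0.24, adjusted p = 0.312). Between the schedules these 3 overlapped.

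Among ligands and relatives of Ccr2, 8 genes were tested and 1 fell. It was Ccr3, the eotaxin receptor next to Ccr2 on chromosome 9, at −2.13 ± 0.45 (adjusted p = 0.0446 by limma), a call that 12 of 15 alternatives lost. Ccr3 reached the filter only in the syngeneic group, at 364 units beside 48.6 with isotype antibody. It could therefore enter the test only through the array where it is high. Ccl2, the best known ligand, read 85.5 units on the syngeneic array, 49.98 and 177 with isotype antibody, 10.4 and 84.4 with day 0 antibody and 83.5 and 15.7 with day 3 antibody. Its arrays of 1 group differed as much as those of different groups. Ccl7 and Ccl12, which also bind Ccr2 in mice, were below the filter on all arrays.

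Markers of other cells moved with the contrast of isotype and syngeneic. Of 15 T cell markers 5 rose and 0 fell by limma (median 0.61), among them Cd28 (1.75 ± 0.26), Cd4 (1.51 ± 0.20), Thy1 (1.15 ± 0.19) and Zap70 (1.09 ± 0.23), with adjusted p-values between 0.0118 and 0.0412. Those of Thy1 and Zap70 were lost when either isotype array was left out, with adjusted p-values of 0.0662 and 0.0693, and 0.112 and 0.0801. Cd3e stood at 0.88 ± 0.27 (adjusted p = 0.116). The summed T cell signal was at 129% to 161% of syngeneic on the 6 allogeneic arrays. Activated T cells can carry Ccr2, and the part of T cells in the Ccr2 signal was not tested. T cell markers had a median of 0.072 between the schedules, with 8 of 15 higher in day 0, beside −0.021 and 46.6% for all tested genes.

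Of 9 Paneth and gut epithelial markers with a probe set, 5 (Itln1, Reg3g, Fabp2, Vil1 and Mptx1) did not reach the filter in any group. The summed signal of all 9 was 359 to 682 units on the 7 arrays, and the part of such cells in the Lyz1 signal was not tested. Of the 4 tested, 0 passed by limma in isotype minus syngeneic. Of 11 dendritic cell markers 2 fell: Ccr9 fell by 1.40 ± 0.25 and Clec10a fell by 0.95 ± 0.19 (adjusted p = 0.0278 and 0.0354 by limma), with each call lost without either isotype array (0.0791 to 0.0969). Of 7 natural killer cell markers 1 fell, the receptor Klra7 (−2.47 ± 0.24, adjusted p = 0.00449 by limma). Klra7 and Ccr9 reached the filter only in the syngeneic group (471 and 178 units) and could enter the test only where they are high. Clec10a lay below the filter in both groups of this contrast, at 78.5 units in syngeneic and 16.4 in isotype. It was tested only through the day 0 and day 3 groups, and its call held under 2 of 14 alternatives. Of 10 B cell markers 2 fell, Fcer2a at −2.08 ± 0.31 (adjusted p = 0.0163, 0.0540 without isotype array 1) and Spib at −1.05 ± 0.22 (adjusted p = 0.0430, 0.0654 and 0.117 without isotype array 1 and 2).

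The genes with the pattern most like each member were found by Pearson correlation of log2 signals over the 6 allogeneic arrays, among 1790 or 1791 genes that varied by at least 1 on that scale. With so many candidates and so few arrays they are given as a description only. For the bright Lyz1 probe set the nearest were Slc2a8 (r = 0.985), a glucose transporter, and Alox15 (r = 0.982), a lipoxygenase of eosinophils and macrophages, followed by Dnajc17, Tspan17 and Rp2. Alox15 read 736 units on the syngeneic array, 404 and 297 with isotype antibody, 565 and 461 with day 0 antibody and 194 and 174 with day 3 antibody, the order of the lysozymes without overlap. For Lyz2 the nearest were B3gnt3 (r = 0.960), Retnla (r = 0.946), a secreted protein of macrophages stimulated by interleukin 4, Slc2a8, Bhlhe40 and Tspan17. Retnla read 458 units, then 189 and 230, then 308 and 398, then 144 and 146 in the same sequence of groups.

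Slc2a8 and Tspan17 thus stood near both lysozymes. For Ms4a7 the nearest were Krtap3-1 (r = 0.973), Dusp1 (r = 0.946), a phosphatase of MAP kinases, Itgam (r = 0.928), the CD11b chain of myeloid cells, Pygl and Ccl6. Ccl6, a chemokine of myeloid cells, read 1522 units on the syngeneic array, 1351 and 989 with isotype antibody, 2728 and 3043 with day 0 antibody and 1122 and 1104 with day 3 antibody. Its day 0 arrays lay above the syngeneic array, unlike those of Ms4a7. For the bright Ccr2 probe set the nearest were Ern1 (r = 0.971), Gm7008, Pde6d, Lyz1 (r = 0.950) and Tnfsf10 (r = 0.940), the death ligand TRAIL.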

How the data were processed

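Spleen RNA (10 µg per array) was measured on 7 Affymetrix arrays. The deposited values are linear signal intensities, 1 per probe set, made with MAS5 by the authors, per the submitters' processing notes; the MAS5 version and a genome build are not given in the sources used here. MAS5 brings all arrays to 1 trimmed mean. Such scaling assumes equal total signal, so a value is relative to the rest of its array. Precision is limited by how few arrays there are.

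Of 22690 probe sets, 64 controls were left out. Of the other 22626, 20380 had 1 gene symbol, 691 several and 1555 none in the platform annotation; 20364 gene IDs matched the RefSeq table and 0 symbols changed. Only probe sets with 1 symbol were named. Signals were analysed as log2(signal + 50), which understates changes of dim probe sets. Probe sets entered the test where 1 or more group means were no lower than the 40th percentile of the signals (99.7 units), which left 15372 probe sets and 8947 named genes.

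The 4 groups entered 1 fit with limma 3.58.1 in R 4.3.3 (3 residual and 3.36 prior degrees of freedom). For the syngeneic group, with its single array, the spread of the other groups was assumed. Two-sided p-values were adjusted by Benjamini and Hochberg over all tested probe sets, with a threshold of 0.05. Fold changes are on the log2(signal + 50) scale, and ratios of mean signals are named as such. Errors of means are SD of 2 arrays and errors of differences are SE of the fit. On simulated data the fit was tried only for day 0 minus day 3, with 2 arrays in each group. That trial does not cover isotype minus syngeneic, where the syngeneic group has 1 array. List genes are represented by the probe set with the highest mean; lists carry counts and medians and no test.

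The members and lists were chosen with earlier results of these data known. Named were all members, up to 4 genes of each list with the largest difference past the threshold and no overlap, a fixed set of myeloid and lymphoid genes, and the 5 genes nearest to each member. Ms4a1, Ms4a4c and Ms4a4b were named as neighbours of Ms4a7, Lgals3 as a list's lone riser, and Ngp, Mpo and Elane for their order, after their values were seen. Alternatives changed the pseudocount (16 or 100), the filter (60th percentile or no filter), the scaling (median centring or quantile normalization), the design (a block for the replicate number, or only the groups compared), the variance model (limma with trend and robust set) and the arrays (each left out in turn). Promoter stretches came from RefSeq and were aligned globally with Biopython 1.88. Replicate numbers of different groups were not linked by the labels. Certain items are not reported here.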

Additional observations from a re-analysis of the deposited data

Results flagged for a closer look

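For 9 of 44 probe sets looked at (the members and the named list genes), both day 0 arrays lay on one side of both isotype arrays and both day 3 arrays on the other. Of all 15372 tested probe sets 399, or 2.60%, did so. The members were picked on the schedules, and list genes were named largely for their isotype minus syngeneic difference, which uses the same isotype arrays. Nothing is therefore read from the count beside this share. In day 0 minus day 3 limma called 0 probe sets (1043 at an unadjusted p under 0.05), so none of these differences passed the test across all probe sets. The log2 differences, day 0 minus day 3, were 1.02 for Lyz2, 1.59 for the bright Lyz1 probe set and 1.00 for the middle Lyz1 probe set, for which the members were picked. Among list genes with day 0 higher they were 0.94 for Csf2ra, 0.98 for Lcn2 and 0.56 for S100a9. With day 3 higher they were −0.47 for Car2, −0.56 for Gata1 and −0.67 for Klf1, all erythroid genes.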

How the results depend on the processing

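The number of probe sets that differed between isotype and syngeneic arrays was 1017. It was 1616 with the stricter filter, 542 with no filter, 311 with the compared groups alone, 1786 with limma's trend and robust options, and 409 to 708 with 1 array left out. In the other contrasts it was 0, and 0 with any array left out. A pseudocount of 100 gave 3 in day 0 minus isotype, 2 in day 3 minus isotype and 6 in day 0 minus day 3, the stricter filter 13, 8 and 7, and the trend and robust options 21, 5 and 12. List genes called in isotype minus syngeneic numbered 62, and 37 with the compared groups alone. The Lyz2 difference was −1.40 with the compared groups alone (adjusted p = 0.0863) and −1.57 to −1.24 with 1 array left out.

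The replicate number as a block gave 640 probe sets in isotype minus syngeneic. Whether the numbers pair the arrays is not known. Deviations from the group means of same-numbered arrays correlated at −0.01, 0.07 and 0.04, which shows no pairing but cannot exclude one. The dim Ccr2 probe set turned from −0.11 to 0.077 with the block and ranged from −0.24 to 0.021 with 1 array left out, and Ccl2 turned from 0.15 to −0.066 with the block. None of these passed the test.

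Day 0 minus day 3 stayed above 0 in all 16 alternatives for Lyz2, the bright and middle Lyz1 probe sets, Ms4a7 and the bright and middle Ccr2 probe sets, and in the 15 that gave a value for the dim Ccr2 probe set. It was 1.07 for Lyz2 under median centring, 1.72 and 0.85 for Ms4a7 with pseudocounts of 16 and 100, and 0.61, 0.51 and 0.62 for the bright Ccr2 probe set with those pseudocounts and under median centring. Day 0 minus isotype of the bright Ccr2 probe set, 0.0090, changed sign under quantile normalization (−0.023) and median centring (−0.037). Signals of Ms4a7 in isotype and day 3, of the dim Lyz1 probe set and of Ccl2 lie near the bottom of the arrays, where values have no firm order.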

Other observations

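The erythroid markers ran against the lysozymes between the schedules. Klf1, Gata1 and Car2, which act in red cell precursors, fell from syngeneic to isotype with log2 differences of −2.02 ± 0.20, −1.60 ± 0.21 and −1.93 ± 0.19 (adjusted p = 0.00478, 0.0116 and 0.00488 by limma). All 6 tested erythroid genes were lower on both day 0 arrays than on both day 3 arrays, with a median log2 difference of −0.65, beside 21.0% of all tested genes and a median of −0.021. Klf1 read 3200 units on the syngeneic array, 799 and 711 with isotype antibody, 649 and 618 with day 0 antibody and 978 and 1097 with day 3 antibody. The summed erythroid signal was at 27.8% and 27.9% of syngeneic in isotype, 24.6% and 22.4% in day 0, and 34.3% and 35.4% in day 3.

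Exocrine pancreas markers, which mark tissue that can come along when a spleen is removed, also differed between arrays. Their summed signal was 6092 units on the syngeneic array, 2914 and 3054 with isotype antibody, 1261 and 1795 with day 0 antibody, and 2017 and 2372 with day 3 antibody. Of 11 tested 1 fell from syngeneic to isotype, the elastase Cela1, at −1.64 ± 0.33 (adjusted p = 0.0377 by limma), and without isotype array 1 or 2 its adjusted p was 0.0901 or 0.121. Stroma and endothelium markers stood at 71.3% to 77.9% of syngeneic on the isotype and day 0 arrays and at 88.3% and 96.5% with day 3 antibody, with 0 of 6 past the test in isotype minus syngeneic by limma.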
